A study of Homo sapiens with 8 samples.

Results

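The miR-15, miR-16 and miR-107 seed superfamily was examined in a human colorectal carcinoma line, HCT116. Its members here are 10 mature microRNAs (miRNAs), chosen by their stems: miR-15, miR-16, miR-195, miR-497, miR-424, miR-503, miR-103a and miR-107. All 10 were present among the 2026 entries of the count table. The cells had been grown as floating spheroids without serum and sorted by an antibody to CD44v6, a variant form of CD44, the cell-surface receptor for hyaluronan, after dead cells were gated out. Small RNA was sequenced from 2 CD44v6-negative and 2 CD44v6-positive samples, each joining 2 sequencing entries, so n = 2 per group. Both groups are fractions of 1 line, and the labels name no drug or genotype that separates them. Separate cultures are not named for samples 1 and 2, so the spread behind each p-value is that of these samples alone and could be technical.

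A miRNA guides the silencing machinery to messenger RNAs that pair with its seed, bases 2 to 8 from the 5′ end. Members of this group carry the motif AGCAGC at or next to the start, and the best-known targets of miR-15 and miR-16 are cell-cycle and survival genes such as the D-type cyclins, CCNE1, CDK6 and BCL2. The miR-15a and miR-16 locus on chromosome 13 is the classical deletion of chronic lymphocytic leukaemia, and the pair miR-424 and miR-503 is known for slowing the cell cycle during differentiation. miR-103a and miR-107 lie in introns of pantothenate kinase genes and are known as regulators of DICER1 and of insulin signalling.

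The mature sequences are shown because they divide the group by seed. They are from RefSeq (GRCh38.p14), 5′ to 3′, with the seed in capitals; all 10 matched by name. Of the 10, 6 share the seed AGCAGCA:
hsa-miR-15a-5p: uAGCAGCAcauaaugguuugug
hsa-miR-15b-5p: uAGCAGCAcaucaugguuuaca
hsa-miR-16-5p: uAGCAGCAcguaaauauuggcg
hsa-miR-195-5p: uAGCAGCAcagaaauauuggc
hsa-miR-497-5p: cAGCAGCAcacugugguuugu
hsa-miR-424-5p: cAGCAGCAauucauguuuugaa
hsa-miR-503-5p has another base at the end of the seed:
hsa-miR-503-5p: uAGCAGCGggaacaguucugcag
In hsa-miR-103a-3p and hsa-miR-107 the motif AGCAGC starts at base 1, where it starts at base 2 in the sequences above, which gives another seed:
hsa-miR-103a-3p: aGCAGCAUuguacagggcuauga
hsa-miR-107: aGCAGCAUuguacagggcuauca
hsa-miR-15b-3p, the opposite arm of the miR-15b hairpin, has an unrelated seed and is in the group by its stem only:
hsa-miR-15b-3p: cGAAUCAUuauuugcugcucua

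These sequences limit how far the counts can be told apart. miR-103a-3p and miR-107 differ by a single substitution, G22C, counted from the 5′ end with the miR-103a-3p base first. miR-16-5p and miR-195-5p differ by G10A and U11G over the 21 bases of the latter. The mismatch setting of the authors' alignment is not given in the sources used here, so reads may have passed between such near copies. The only other table entry with the seed AGCAGCA, miR-6838-5p, had 1 read, in CD44v6-positive sample 1.

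The hairpins are placed as GENCODE release 29 gives them on GRCh38. MIR15A (chr13:50049119-50049201, minus strand) lies in an exon and MIR16-1 (chr13:50048973-50049061, minus strand) in an intron of the noncoding gene DLEU2. MIR15B (chr3:160404588-160404685, plus strand) and MIR16-2 (chr3:160404745-160404825, plus strand) lie in an intron of SMC4, a condensin subunit. MIR195 (chr17:7017615-7017701, minus strand) and MIR497 (chr17:7017911-7018022, minus strand) lie in exons of the noncoding gene MIR497HG, both also within an intron of AC040977.2. MIR424 (chrX:134546614-134546711, minus strand) is in no annotated gene of its strand, and MIR503 (chrX:134546328-134546398, minus strand) is in an intron of MIR503HG. MIR103A1 (chr5:168560896-168560973, minus strand), MIR103A2 (chr20:3917494-3917571, plus strand) and MIR107 (chr10:89592747-89592827, minus strand) lie in introns of PANK3, PANK2 and PANK1. miR-16-5p and miR-103a-3p each come from 2 hairpins with the same mature sequence, so their reads cannot be given to a locus.

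Depth differed widely, from 7880631 and 4592278 counted reads in the CD44v6-negative samples to 919802 and 154481 in the CD44v6-positive samples. A count of 3 reads, the most that a count of 0 allows, was 0.381 and 0.653 against 3.26 and 19.4 CPM (counts scaled to equal library totals). All 7 colon epithelial marker miRNAs were read in every sample, at a summed 19100 to 32229 CPM in CD44v6-negative and 13696 to 17407 CPM in CD44v6-positive cells. CD44v6 itself cannot be read from miRNA counts. Blood, liver, and fibroblast and muscle markers were highest in CD44v6-positive sample 2, where endothelial and neuronal markers were lowest. The liver marker was also higher in CD44v6-positive sample 1 than in either CD44v6-negative sample. The 6 blood markers, all read in every sample, summed to 124 to 164 CPM in CD44v6-negative samples and to 96.0 and 625 CPM in CD44v6-positive samples 1 and 2. The liver miRNA miR-122-5p was at 4.59, 3.99, 48.6 and 610 CPM, in the same order. The 5 fibroblast and muscle markers in the table summed to 863 to 1267 CPM and to 854 and 5034 CPM, with miR-1-3p and miR-133a-3p at 0 in CD44v6-negative sample 2 and CD44v6-positive sample 2. The endothelial miRNA miR-126-3p was at 267 to 336 CPM against 141 to 173 CPM, and the 2 neuronal markers summed to 946 to 1980 CPM against 438 to 837 CPM, with miR-124-3p at 0 in CD44v6-positive sample 2. The part of these in the values below was not tested. Without CD44v6-positive sample 2 the fitted differences kept their direction in all 10 members, with log2 fold changes of -0.64 for miR-15a-5p, -0.82 for miR-15b-5p, -2.49 for miR-15b-3p, -0.20 for miR-16-5p, -0.82 for miR-195-5p, 0.74 for miR-497-5p, -1.62 for miR-424-5p, -2.20 for miR-503-5p, -0.45 for miR-103a-3p and -0.36 for miR-107.

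The question was how this family differs between CD44v6-positive and CD44v6-negative cells. Levels of 9 of the 10 members were lower in CD44v6-positive cells in the fit, and no member passed the test. Summed over the 10 members, the level was 25990 and 21005 CPM in CD44v6-negative samples 1 and 2, and 15907 and 11741 CPM in CD44v6-positive samples 1 and 2. Levels are CPM scaled by TMM, a factor that corrects for differences in library make-up. It was 0.663 and 1.2 for CD44v6-negative samples 1 and 2, and 1.01 and 1.24 for CD44v6-positive samples 1 and 2. Unscaled, the members held 1.72% and 2.52% of all counted reads, against 1.60% and 1.46%. The log2 ratio of their summed level was -0.77 with TMM, and -0.45 with upper-quartile and with total-count scaling. Each read is 1 mature miRNA of 21 to 23 bases, so no division by length is needed to set members side by side, although ligation favours some sequences. In these sorted samples, fewer expressing cells and less miRNA per cell cannot be told apart.

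edgeR's quasi-likelihood test with Benjamini-Hochberg adjustment over the 570 tested entries called 0% of them, and 0 of the 10 members. At an unadjusted p under 0.05 stood 30.5% of the entries, while DESeq2 called 75 entries and limma-voom 4. At an unadjusted p under 0.05, 2 members, miR-15b-3p and miR-424-5p, were lower, where 17.5% of all tested entries were. Log2 fold changes, CD44v6-positive minus CD44v6-negative, were negative in 9 members, against 55.4% of all tested entries. Both CD44v6-positive samples lay below both CD44v6-negative samples in 6 members (miR-15a-5p, miR-15b-5p, miR-15b-3p, miR-16-5p, miR-424-5p and miR-107), against 34.6% of all tested entries. They lay above in 1 member, miR-497-5p, against 24.9% of all tested entries. The median log2 fold change was -0.92 over the members and -0.31 over all tested entries. DESeq2 called 1 member, miR-15b-3p, which was lower, against 5.79% of tested entries called lower by it, and limma-voom called no member.

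**Figure D1:**
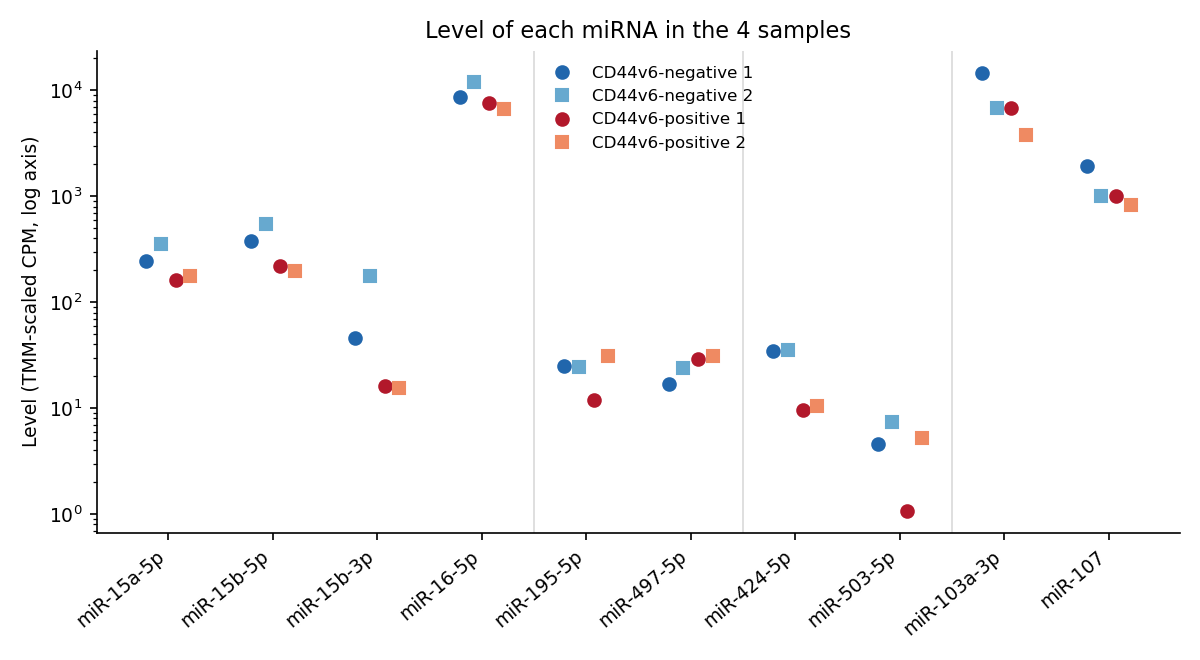
Level of each of the 10 miRNAs in TMM-scaled CPM on a log axis, 1 point per sample; grey lines divide the miR-15 and miR-16 loci, the miR-195 and miR-497 locus, the miR-424 and miR-503 locus, and miR-103a with miR-107. miR-16-5p and miR-103a-3p lie far above the rest, and the 2 CD44v6-positive points lie below both CD44v6-negative points for miR-15a-5p, miR-15b-5p, miR-15b-3p, miR-16-5p, miR-424-5p and miR-107.

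Both abundant members carried most of the group's reads. Reads of miR-16-5p, best known as a brake on the cell cycle, numbered 45134 and 66649 in CD44v6-negative cells, then 7050 and 1279 in CD44v6-positive cells. These were 8635 and 12084 CPM against 7607 and 6665 CPM. Both CD44v6-positive samples were below both CD44v6-negative ones, by a margin smaller than the spread between the CD44v6-negative samples. The log2 fold change was -0.54 ± 0.42 (SE, n = 2 per group, edgeR adjusted p = 0.445), and -0.10 without CD44v6-negative sample 2.

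miR-15a-5p, the partner of miR-16 on chromosome 13, was at 244 and 356 CPM in CD44v6-negative and 163 and 177.2 CPM in CD44v6-positive cells. The CD44v6-positive samples, with 151 and 34 reads, lay within 1.09-fold of each other and under both others. The log2 fold change was -0.82 ± 0.52 (edgeR adjusted p = 0.327), and it was -0.34 without CD44v6-negative sample 2.

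miR-15b-5p, the guide strand of the chromosome 3 hairpin, was at 377 and 543 CPM against 220.1 and 198 CPM. The groups did not overlap, and the CD44v6-positive samples, with 204 and 38 reads, were within 1.11-fold of each other. Its log2 fold change of -1.13 ± 0.51 (edgeR adjusted p = 0.189) ran from -1.34 to -0.67 with 1 sample left out.

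miR-15b-3p, the other strand of that hairpin, had the largest fitted difference of the group. Its reads numbered 238 and 969 in CD44v6-negative cells, then 15 and 3 in CD44v6-positive cells, which is 45.5 and 175.7 CPM against 16.2 and 15.6 CPM. The CD44v6-positive samples were nearly equal and the CD44v6-negative samples differed 3.86-fold, so the size of the difference depends on which of the latter is used. The log2 fold change was -2.79 ± 0.87 (edgeR adjusted p = 0.117), -1.34 without CD44v6-negative sample 2 and -3.38 without CD44v6-negative sample 1. It passed in the latter fit (adjusted p = 0.0153) and in DESeq2 (adjusted p = 0.0244). Summed over each group, its reads gave a ratio of 0.143 (95% exact interval 0.0846 to 0.227). Like all intervals here, this covers counting error only and leaves out the spread between samples. PCR copies are not independent molecules, so even counting error may be understated.

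miR-195-5p and miR-497-5p, transcribed together from chromosome 17, were both scarce. miR-195-5p was at 24.9 and 24.3 CPM in CD44v6-negative and 11.9 and 31.3 CPM in CD44v6-positive cells, so the groups overlapped. The latter values rest on 11 and 6 reads. Its log2 fold change of -0.35 ± 0.73 (edgeR adjusted p = 0.771) was 0.22 without CD44v6-positive sample 1 and -0.82 without CD44v6-positive sample 2. miR-497-5p was at 17.0 and 24.1 CPM against 29.1 and 31.3 CPM, from 27 and 6 reads in the CD44v6-positive samples. It was the only member higher in both CD44v6-positive samples, and its fitted difference of 0.54 ± 0.62 on the log2 scale (edgeR adjusted p = 0.583) was smaller than its standard error.

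miR-424-5p, from the X chromosome, was at 34.6 and 35.5 CPM in CD44v6-negative and 9.71 and 10.4 CPM in CD44v6-positive cells. Samples of a group differed by at most 1.07-fold, the tightest agreement in the family, but the CD44v6-positive values rest on 9 and 2 reads. The log2 fold change of -1.81 ± 0.66 (edgeR adjusted p = 0.136) ran only from -1.87 to -1.62 with 1 sample left out. The ratio of summed reads was 0.280 (95% exact interval 0.139 to 0.507). For its neighbour miR-503-5p, 24 and 41 reads were counted in CD44v6-negative cells, and 1 read in each CD44v6-positive sample. That is 4.59 and 7.43 CPM against 1.08 and 5.21 CPM, and the groups overlapped. The ratio of summed reads was 0.295, with a 95% exact interval of 0.0350 to 1.11, so counting error alone reaches a ratio of 1. For both miRNAs the interval leaves out the spread between samples, so it is no test between the groups. The fitted log2 difference of -1.55 ± 1.122 (edgeR adjusted p = 0.397) was -0.34 without CD44v6-positive sample 1 and -2.20 without CD44v6-positive sample 2.

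miR-103a-3p was at 14666 and 6751 CPM in CD44v6-negative and 6850 and 3778 CPM in CD44v6-positive cells. CD44v6-negative sample 1 stood above the rest, and CD44v6-negative sample 2 fell between the CD44v6-positive samples. The log2 fold change of -1.01 ± 0.57 (edgeR adjusted p = 0.269) was -0.27 without CD44v6-negative sample 1. miR-107 was at 1942 and 1002 CPM against 998.1 and 829 CPM, so CD44v6-negative sample 2 and CD44v6-positive sample 1 were almost level. Its log2 fold change of -0.69 ± 0.52 (edgeR adjusted p = 0.418) was -0.06 without CD44v6-negative sample 1.

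By mean level in CD44v6-negative cells the order was miR-103a-3p (10708 ± 5596 CPM, SD, n = 2), miR-16-5p (10360 ± 2439), miR-107 (1472 ± 665), miR-15b-5p (460 ± 118), miR-15a-5p (300 ± 79.7), miR-15b-3p (111 ± 92.0), miR-424-5p (35.1 ± 0.641), miR-195-5p (24.6 ± 0.408), miR-497-5p (20.6 ± 5.01) and miR-503-5p (6.01 ± 2.01). In CD44v6-positive cells miR-16-5p came first (7136 ± 666 CPM), then miR-103a-3p (5314 ± 2172), miR-107 (913 ± 120), miR-15b-5p (209 ± 15.6) and miR-15a-5p (170 ± 10.1). There miR-497-5p (30.2 ± 1.51) and miR-195-5p (21.6 ± 13.7) preceded miR-15b-3p (15.9 ± 0.390), miR-424-5p (10.1 ± 0.503) and miR-503-5p (3.15 ± 2.92). Neighbours whose mean ± SD overlapped in CD44v6-negative cells were miR-103a-3p with miR-16-5p, miR-15b-5p with miR-15a-5p, miR-15b-3p with miR-424-5p, and miR-195-5p with miR-497-5p. In CD44v6-positive cells they were miR-16-5p with miR-103a-3p, miR-497-5p with miR-195-5p, and miR-195-5p with miR-15b-3p. Among all 570 tested entries miR-16-5p ranked 26 and miR-103a-3p 27 by mean level.

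**Figure D2:**
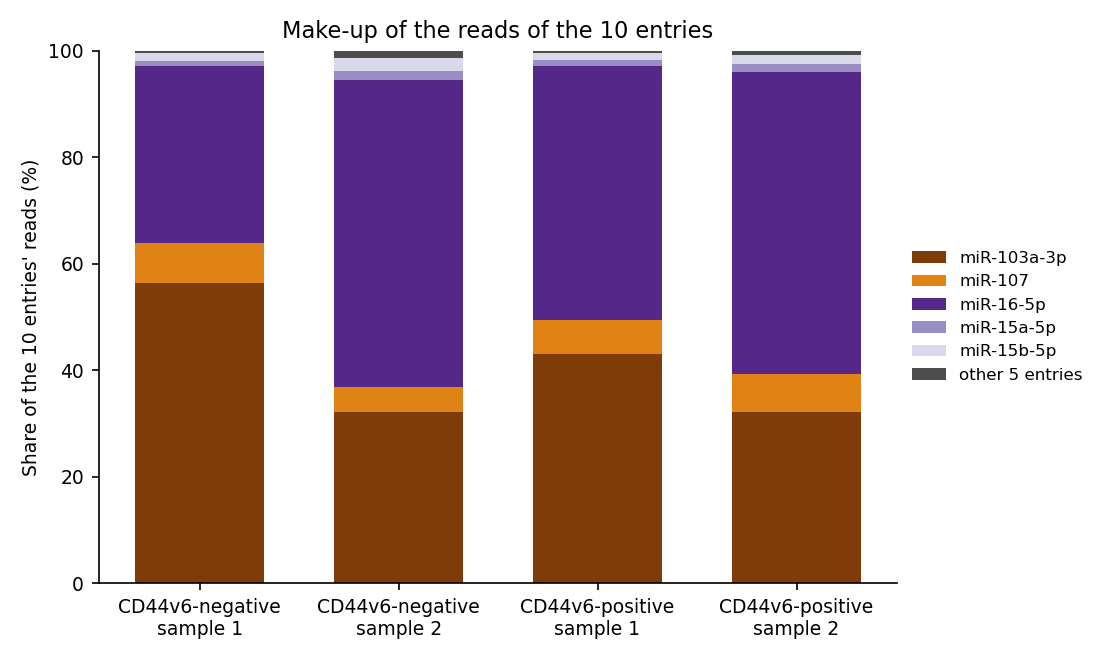
Share of the reads of the 10 miRNAs taken by the 5 most abundant and by the other 5 summed, in percent, with 1 bar per sample. miR-103a-3p and miR-16-5p together fill most of each bar, and CD44v6-negative sample 1, at 56.4% miR-103a-3p, differs more from CD44v6-negative sample 2, at 32.1%, than from CD44v6-positive sample 1, at 43.1%.

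The balance of the 2 main seeds differed between samples of a group more than between groups. Members with the seed AGCAGCA held 35.9% and 62.2% of the family's reads in CD44v6-negative cells, then 50.6% and 60.6% in CD44v6-positive cells. Members with the seed GCAGCAU held 63.9%, 36.9%, 49.3% and 39.2%, in the same order. miR-16-5p alone gave 92.5% to 94.6% of the AGCAGCA reads in every sample. As a share of miR-16-5p and miR-103a-3p together, a measure chosen after the values were seen, miR-16-5p took 37.1%, 64.2%, 52.6% and 63.8%.

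**Figure D3:**
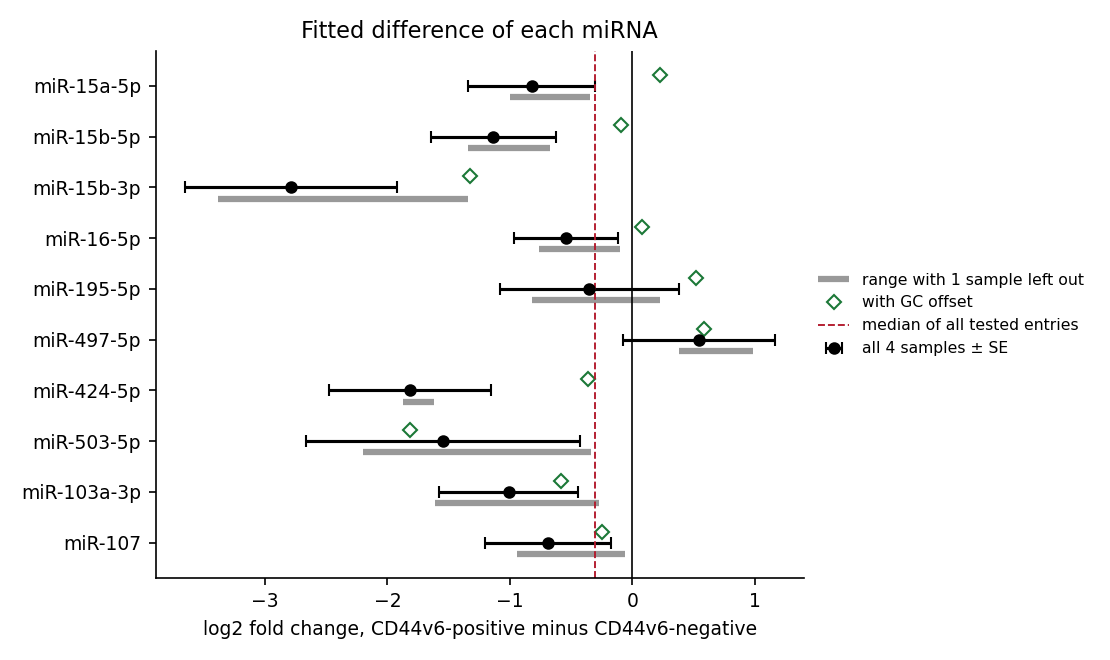
Log2 fold change of each miRNA, CD44v6-positive minus CD44v6-negative: black points with SE from all 4 samples, grey bars the range with 1 sample left out (2 such fits for miR-503-5p and 4 for each other member), open diamonds the value with a GC offset, and a dashed line the median of all tested entries at -0.31. miR-497-5p alone lies above 0 in the main fit, and the diamonds of miR-15a-5p, miR-16-5p and miR-195-5p lie above 0 as well.

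Base composition differed among the members. GC content of the mature sequence was 36.4% for miR-15b-3p and miR-424-5p, 40.9% for miR-15a-5p and miR-15b-5p, and 52.4% for miR-497-5p, the member that was higher. miR-503-5p, with the highest GC content of the group at 56.5%, had a negative log2 fold change, which rests on 1 read in each CD44v6-positive sample. The members' median was 44.2%, and that of the 87.2% of tested entries with a sequence was 50.0%. Across those entries, which share libraries and are not independent replicates, log2 fold change and GC content correlated at a Pearson r of 0.457. With an offset removing the trend of log counts on GC content in each sample, 6 of the 10 members were negative and their median was -0.17, beside 0.08 for all tested entries. miR-15a-5p became 0.23, miR-16-5p 0.08, miR-195-5p 0.52 and miR-15b-5p -0.09, while miR-15b-3p was -1.33, miR-424-5p -0.36, miR-103a-3p -0.58 and miR-107 -0.25. miR-497-5p was 0.59, and miR-503-5p was -1.82, further from 0 than its -1.55 without the offset. Whether GC content sets these differences was not tested.

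Shares of reads between related entries need no scaling between libraries. Of 11 such shares, 3 were lower and 4 higher in both CD44v6-positive samples, and 4 overlapped. Some of these shares have a member in common, and some separate only by a near tie or by counts of 0. Separation of levels was common, lower in 34.6% and higher in 24.9% of all tested entries, but no such rate was computed for shares. Without that background the counts are no result about the family. With 2 samples against 2, an exact permutation test cannot give a two-sided p below 0.333, so these are descriptions with 95% Wilson intervals for counting error.

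The share of miR-15b-5p in the reads of miR-15b-5p and miR-16-5p differed between the groups by more than between samples of a group. It was 4.18% (4.00 to 4.36) and 4.30% (4.15 to 4.46) in the CD44v6-negative samples. In the CD44v6-positive samples it was 2.81% (2.46 to 3.22) and 2.89% (2.11 to 3.94). Samples of a group agreed within counting error, and no interval of one group reached the other. Both miRNAs come from the SMC4 intron, but miR-16-5p is also made at DLEU2, and their GC contents are 40.9% and 45.5%. The like share of miR-15a-5p with miR-16-5p, added after the values were seen, was 2.74% and 2.86% against 2.10% (1.79 to 2.45) and 2.59% (1.86 to 3.60), and the last interval reaches both CD44v6-negative values.

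The passenger strands of miR-16 tell the 2 loci apart where the guide strand does not. Reads of miR-16-2-3p, from SMC4 on chromosome 3, numbered 376 and 481 in CD44v6-negative cells, then 45 and 17 in CD44v6-positive cells. Those of miR-16-1-3p, from DLEU2 on chromosome 13, numbered 17 and 41, then 0 in both CD44v6-positive samples. The former were 3.25 and 7.43 CPM, where a count of 0 allows 3.26 and 19.4 CPM in CD44v6-positive samples 1 and 2. At this depth the counts of 0 do not establish a lower level. Of the reads of both, miR-16-2-3p took 95.7% (93.2 to 97.3) and 92.1% (89.5 to 94.2) in CD44v6-negative cells. It took 45 of 45 and 17 of 17 in CD44v6-positive cells, with lower limits of 92.1% and 81.6%. These intervals overlap between the groups, which is no test of a difference, and whether the share differs was not tested.

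The strands of the miR-15b hairpin were divided unevenly between samples. miR-15b-3p made up 10.8% (9.56 to 12.1) and 24.4% (23.1 to 25.8) of its hairpin's reads in CD44v6-negative cells. In CD44v6-positive cells it made up 6.85% (4.19 to 10.99) and 7.32% (2.52 to 19.4). Both are below the CD44v6-negative shares, but their intervals reach that of CD44v6-negative sample 1, and the CD44v6-negative samples differed from each other by more.

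**Figure D4:**
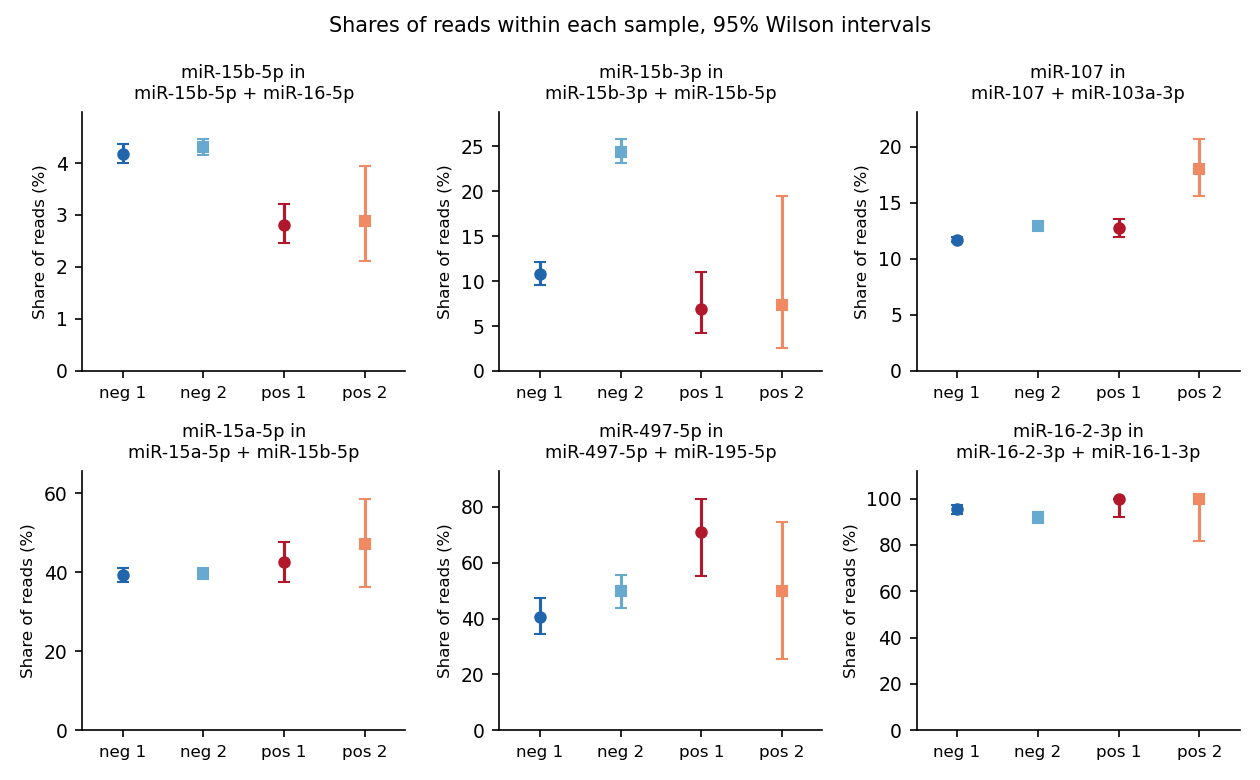
Share of reads, in percent, of the first named miRNA among the reads of both named miRNAs, in CD44v6-negative (neg) and CD44v6-positive (pos) samples 1 and 2, with 95% Wilson intervals and axes from 0. For miR-15b-5p with miR-16-5p the CD44v6-positive samples, at 2.81% and 2.89%, lie below the CD44v6-negative samples at 4.18% and 4.30%; in the other panels intervals of the groups overlap or samples of a group differ.

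miR-107 took 11.7% (11.5 to 11.9) and 12.9% (12.6 to 13.3) of the reads of miR-107 and miR-103a-3p in CD44v6-negative cells, and 12.7% (12.0 to 13.5) and 18.0% (15.6 to 20.7) in CD44v6-positive cells. CD44v6-positive sample 2 stood furthest from the rest, and the interval of CD44v6-negative sample 1 also lay below all others. miR-15a-5p took 39.3% and 39.6% of the reads of miR-15a-5p and miR-15b-5p, against 42.5% (37.5 to 47.7) and 47.2% (36.1 to 58.6), with overlapping intervals. miR-497-5p took 40.6% and 49.8% of its reads with miR-195-5p, against 71.1% (55.2 to 83.0) and 50.0% (25.4 to 74.6). The last value rests on 12 reads. The shares of miR-503-5p with miR-424-5p and of the other strands of miR-424, miR-195 and miR-503 rest on at most 21 reads per CD44v6-positive sample. miR-15a-3p had 0 reads beside 151 and 34 of miR-15a-5p, where 2 and 11 were read in CD44v6-negative cells. Those 2 and 11 reads were 0.383 and 1.99 CPM, below the 3.26 and 19.4 CPM that a count of 0 allows in the CD44v6-positive samples.

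Related entries outside the group were counted by list. Of the other arms of the members' hairpins, 8 were in the table, 7 had a read and 4 were tested, with 3 negative and 1 positive log2 fold changes, a median of -0.19 and 0 passing. Other entries of the X-chromosome cluster around miR-424 numbered 7, of which 3 were tested, all 3 negative with a median of -2.04 and 0 passing. With the GC offset miR-450a-5p and miR-450b-5p were positive (1.40 and 0.28). miR-542-3p had no matched sequence, so it was not in that fit. Reads of miR-542-3p numbered 98 and 108 in CD44v6-negative cells, then 0 and 1 in CD44v6-positive cells, a ratio of summed reads of 0.0466 (95% exact interval 0.00117 to 0.263, edgeR adjusted p = 0.130). Without CD44v6-positive sample 2, which held the single read, its log2 fold change was -9.21, a fit against 0 reads. Without CD44v6-positive sample 1 it was -1.995. miR-542-3p passed with no filter on low counts (edgeR adjusted p = 0.0229), as did 77 of 1510 entries. It also passed with the replicate number as a block (edgeR adjusted p = 0.00398), where 228 of 570 entries did. For miR-450b-5p 94 and 252 reads stood against 6 and 2, or 18.0 and 45.7 against 6.47 and 10.4 CPM (log2 fold change -2.04 ± 0.85, edgeR adjusted p = 0.165). Leaving out CD44v6-negative sample 2 gave -1.04, and leaving out CD44v6-negative sample 1 gave -2.49. Its GC content was 27.3%, and with the GC offset the value was 0.28. miR-450a-5p overlapped between the groups, at 11.5 and 18.7 against 5.40 and 20.8 CPM. miR-16-2-3p (-0.25 ± 0.59) and miR-424-3p (-0.12 ± 0.98) overlapped as well.

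The sequence of miR-103b is the exact reverse complement of that of miR-103a-3p shown above:
hsa-miR-103b: ucauagcccuguacaaugcugcu
Its reads numbered 72476 and 35146 in CD44v6-negative cells, then 5914 and 667 in CD44v6-positive cells. That is 94.6%, 94.4%, 93.2% and 92.0% of the reads of miR-103a-3p in the same samples. Its log2 fold change of -1.04 ± 0.57 stood beside -1.01 ± 0.57 for miR-103a-3p. The use of strand in the authors' counting is not given in the sources used here, so reads of the 2 entries cannot be told apart and miR-103b is no separate measurement of the family. Leaving its row out, an alternative chosen after the values were seen, left 0 members and 0 entries passing.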

How the data were processed

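The authors deposited a table of raw counts, whole numbers of reads for 2026 mature miRNA entries in 4 columns, each joining 2 sequencing entries. The submitters' processing notes list Bowtie 0.12.9, cutadapt 1.10, CASAVA 1.8.2, DESeq2 and the build GRCh38. What each did, and how strand and multiple mapping were handled, is not given in the sources used here. The authors' scaled table was not used.

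The members and lists were chosen with earlier results of these data known. Counts were filtered with filterByExpr (minimum count 10, minimum total 15), scaled by TMM and tested in edgeR 4.0.16 (R 4.3.3) by glmQLFit and glmQLFTest, with group as the only term and Benjamini-Hochberg adjustment over 570 entries at a threshold of 0.05. The script was tested on simulated data. SE is the absolute log2 fold change over the square root of F. Alternatives used DESeq2 1.42.0 and limma 3.58.1 (voom), other scalings and filters, each sample left out, the replicate number as a block and a GC offset (loess, span 0.75, on mature RefSeq sequences, found for 87.2% of tested entries). The rule named every member with its values, and up to 6 of the most abundant related entries.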

Additional observations from a re-analysis of the deposited data

How the results depend on the processing

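No setting tried turned the direction of miR-15b-5p, miR-15b-3p, miR-424-5p, miR-503-5p, miR-103a-3p, miR-107 or miR-497-5p, of which miR-503-5p gave 12 values and each other 15. Of 147 such values over the 10 members, 132 kept direction and side of the threshold, 7 gained significance and 8 changed sign. Entries passing among all tested, 0 in edgeR, numbered 4 with limma-voom, 75 with DESeq2, 48 with total-count scaling, 77 with no filter, 1 with the GC offset and 26 to 55 with 1 sample left out. Members passing numbered 1 of 10 with DESeq2 and 1 of 10 with no filter, in each case miR-15b-3p. With the replicate number as a block, 228 entries and 4 members passed (miR-15b-5p, miR-15b-3p, miR-424-5p and miR-103a-3p), and with the GC offset beside the block 115 entries and 0 members. Same-numbered samples deviated together at a correlation of 0.344. The labels do not say that a number marks a shared culture, and 2 pairs are too few to settle from the data whether the numbers pair the samples, so the block was kept as an alternative.

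Signs changed with the GC offset, without and with the block, for miR-15a-5p (0.23 and 0.27), miR-16-5p (0.081 and 0.11), miR-195-5p (0.52 and 0.43), miR-16-2-3p (1.25 and 1.19), miR-450a-5p (1.40 and 1.37) and miR-450b-5p (0.28 and 0.57). miR-195-5p was 0.0029 with total-count scaling and ran from -0.82 to 0.22 with 1 sample left out. miR-16-2-3p was 0.058 with upper-quartile and 0.017 with total-count scaling and ran from -0.48 to 0.079, miR-424-3p was 0.24 with upper-quartile scaling and 0.071 with the 10 CPM filter and ran from -8.12 (a fit against 0 reads) to 0.68, and miR-450a-5p ran from -1.23 to 0.34. The cause was not tested. The median over all tested entries was 0.04 with upper-quartile and 0.01 with total-count scaling, and the members' median -0.58 and -0.62. With no filter on low counts the order turned, at -1.55 over all tested entries and -1.31 over the members. Without CD44v6-positive sample 1 the medians were close, at -0.77 and -0.92. Depth limits miR-15b-3p, miR-503-5p, miR-424-5p, miR-195-5p and miR-497-5p, with at most 27 reads in a CD44v6-positive sample.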

Other observations

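The table holds 7 pairs of entries whose mature sequences are exact reverse complements, 1 of them miR-103a-3p with miR-103b. In the other pairs the counts were alike in some and not in others. Reads of miR-374b-5p numbered 445 and 435 in CD44v6-negative cells, then 25 and 5 in CD44v6-positive cells, and its partner miR-374c-3p had 301, 348, 25 and 5 in that order. miR-642a-3p had 53, 43, 9 and 5 reads and miR-642b-5p 43, 37, 8 and 4. miR-550a-3p had 99, 146, 15 and 8 reads and miR-550b-2-5p 85, 119, 12 and 3. miR-423-5p had 7143, 7477, 7432 and 5417 reads and its partner miR-3184-3p had 0 in every sample. The 2 remaining pairs had at most 20 reads in any sample.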
